A study of Mus musculus with 42 samples.

Results

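The last step of the differentiation of mouse embryonic stem cells (mESCs) towards anterior definitive endoderm (ADE), from the sorted d5 Ghigh population to the sorted d6 G+H- population, was measured on 6 arrays, 3 per population, of 42 arrays in the series. The arrays were chosen by their titles. G stands for the reporter of Goosecoid (Gsc), a transcription factor of the anterior primitive streak, and H for that of Hhex, a homeobox factor of the anterior endoderm. The arrays were one-colour Agilent arrays of mouse transcripts, read after Cy3 labelling of total RNA.

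Both populations came from 1 dual reporter mESC line (B6) with GFP knocked in to the Gsc locus and RedStar knocked in to the Hhex locus, grown as a monolayer with activin A and with no drug. The d5 Ghigh cells, described as anterior primitive streak, carried the most GFP on d5 and little RedStar. The d6 G+H- cells, described as anterior mesendoderm, were GFP positive and RedStar negative on d6, within a gate for the surface receptor Cxcr4. The medium was the same on both days. Each population was sorted in 3 independent experiments. The sorts followed reporter proteins made from the Gsc and Hhex loci, so that the transcripts of both genes are not independent of the gates. In such bulk samples fewer cells of a type and less RNA per cell cannot be told apart.

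The primitive streak is the region of the gastrulating embryo where epiblast cells lose their epithelial shape and become mesoderm or endoderm. Wnt and BMP signals and the transcription factors T and Mesp1 mark the streak and its mesoderm, whereas high Nodal or activin signalling at its anterior end gives definitive endoderm. The endoderm becomes epithelial again, and its anterior part secretes antagonists of Wnt, Nodal and BMP that pattern the overlying tissue.

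Probe values are log2 intensities after background correction and quantile normalisation, so that a difference of 1 is a change in intensity of 2-fold. Calls needed a limma adjusted p no higher than 0.01 together with a difference of 1.5 or more in either direction, on any probe of the gene. The d6 arrays had 30040 to 31213 probes well above background. The d5 Ghigh arrays had 40388, 31460 and 34788, and the first of these was the highest value of the 33 arrays of untreated cells. The replicate 3 array of d5 Ghigh lay nearer to the d6 arrays than the other d5 Ghigh arrays did. Its Euclidean distance over all probes was 101 to replicates 2 and 3 of d6 G+H- and 126 to replicate 1, and 135 and 95.7 to replicates 1 and 2 of its own population. Replicates 1 of the 2 populations were on different slides, replicates 2 shared a slide and so did replicates 3. Replicates 3 of both populations belonged to scan session 2, and replicates 1 and 2 to scan session 1.

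Between d5 Ghigh and d6 G+H- cells 310 genes rose, 1.45% of the 21308 genes tested, and 170 genes fell, 0.798%, so that 2.25% were called in either direction. The largest increases included Pga5, a pepsinogen of the stomach, Hesx1, a homeobox factor of anterior endoderm and forebrain, and Chga, a protein of hormone storage granules. The largest decreases included Mesp1, the early mesoderm factor, Bmp4, a ligand of the posterior streak, and Pdgfrb, a receptor of mesenchymal cells. The median difference over all genes was -0.01, and it was 2.04 over the genes that rose and -1.98 over those that fell. All 9 pairs of a d6 array and a d5 array differed in the called direction for 292 of the 310 and 157 of the 170 genes, where 11.3% of all genes were higher and 13% lower in all 9 pairs. The calls rest on the same arrays, so that the counts of pairs are no independent check of them.

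**Figure D1:**
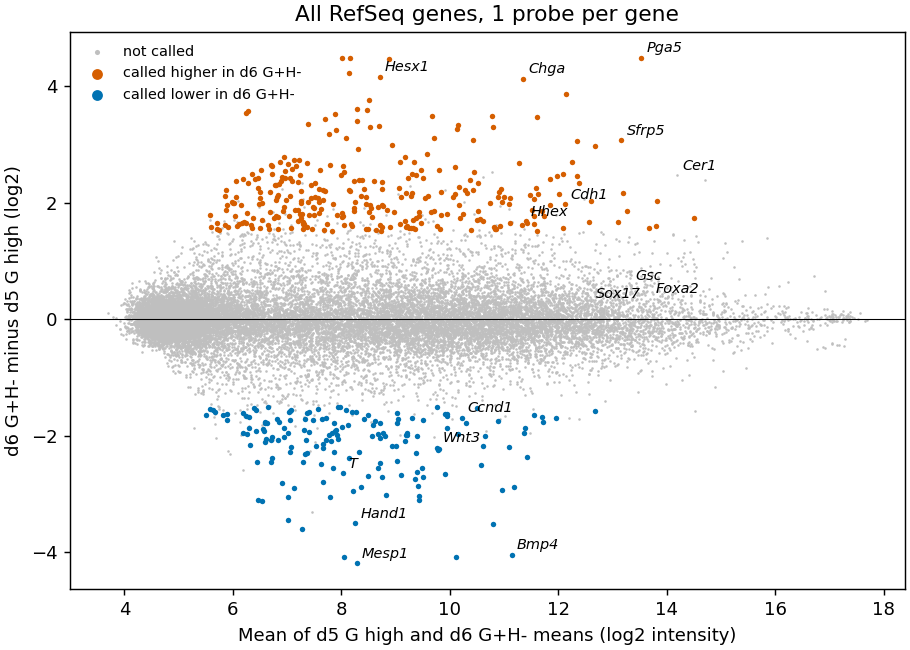
Each point is a gene, by its brightest probe on average. The x axis is the mean of the d5 Ghigh and d6 G+H- means (log2 intensity) and the y axis the d6 G+H- mean minus the d5 Ghigh mean (log2). Orange points were called higher and blue points lower on that probe, 294 and 162 genes, and grey points were not called on it. Gsc, Sox17 and Foxa2 lie near 0, while Pga5 and Mesp1 lie at 4.49 and -4.19.

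The counts depended on which arrays entered the fit. Without d5 Ghigh replicate 3, 487 genes rose and 278 fell. They were 188 and 86 without d5 Ghigh replicate 1, 190 and 87 without d5 Ghigh replicate 2, and 178 and 81 without d6 G+H- replicate 1. In all 6 fits with 1 of these arrays left out, 150 of the 310 and 59 of the 170 genes were called. The spread of each probe was estimated over all 42 arrays. Besides 33 arrays of untreated cells, these held d6 cells from cultures given the EZH2 inhibitor EPZ6438 or DMSO alone. A fit to the 33 untreated arrays called 303 genes higher and 158 lower. A fit to the 6 arrays alone called 0 genes, with a smallest limma adjusted p of 0.0251, and had 373 genes higher and 221 lower past the fold threshold at an unadjusted p under 0.05. With scaling by the 75th percentile, which moved the median of all genes to -0.11, the calls were 269 higher and 267 lower, so that 50.2% of them were higher in place of 64.6%.

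The size of the change differed between replicate pairs. Over the genes that rose, the median difference was 2.87 between replicates 1, 2.03 between replicates 2 and 1.19 between replicates 3. Over the genes that fell it was -2.74, -2.11 and -1.07. Within the slides shared by replicates 2 and by replicates 3, 297 of the 310 genes were higher on both and 160 of the 170 were lower on both. The genes were called from these same arrays, so that these counts are no independent check. With the slide as a term in the fit 321 genes rose and 186 fell. Whether d5 Ghigh replicate 3 held cells further along the differentiation was not tested, and neither was the part of the scan session.

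**Figure D2:**
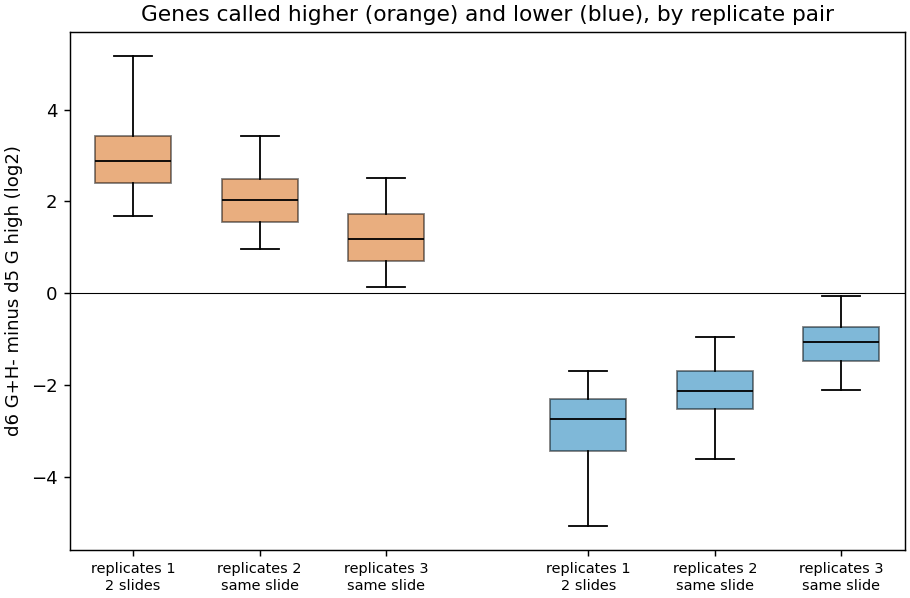
Differences between the d6 G+H- and d5 Ghigh arrays of the same replicate number (y axis, log2) for the 310 genes called higher (orange) and the 170 called lower (blue), 1 probe per gene. Boxes span the quartiles with the median as a line, and whiskers run from the 5th to the 95th percentile of genes. The medians lie at 2.87, 2.03 and 1.19 in orange and at -2.74, -2.11 and -1.07 in blue, so that replicates 3 differed least in both directions.

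The populations were first described by their sort markers, which are not independent of the gates, and by markers of definitive endoderm. Gsc was at 12.31, 12.62 and 14.13 in d5 Ghigh and at 13.40, 13.80 and 13.61 in d6 G+H- cells, a difference of 0.58 with a standard error of 0.47 (limma adjusted p = 0.677). The d5 values spanned all d6 values. Hhex rose by 1.68 (standard error 0.4, limma adjusted p = 0.00635), from 9.76, 10.06 and 11.84 to 12.40, 12.57 and 11.73. Its replicate 3 arrays overlapped the other population, and its call was lost without d5 Ghigh replicate 1 or 2 or d6 G+H- replicate 1 or 2. Hhex RNA was well above background on 3 of 3 d6 G+H- arrays, although the gate was negative for the Hhex reporter, and it differed by 0.48 between d6 G+H+ and d6 G+H- cells (limma adjusted p = 1).

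Sox17 and Foxa2, core endoderm factors, were high in both populations. Sox17 lay between 12.17 and 12.89 in d5 Ghigh and between 12.39 and 12.91 in d6 G+H- cells, with a difference of 0.27 (limma adjusted p = 0.905). Foxa2 lay between 12.93 and 14.34 and between 13.70 and 13.99, with a difference of 0.36. The groups overlapped for both genes. Cxcr4, the surface receptor used to follow mesendoderm, was at 10.14 ± 0.05 (SD, n = 3) and 10.17 ± 0.05. With the receptor in the d6 gate, its RNA there is not independent of the sort. Its difference was 0.03, and the sign was reversed with slide as a term (-0.03).

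Cer1, the secreted antagonist of Nodal, BMP and Wnt, was at 11.53, 12.35 and 14.98 in d5 Ghigh and at 15.90, 15.57 and 14.81 on the d6 arrays. Its difference of 2.47 was not past the test (limma adjusted p = 0.086), and d5 Ghigh replicate 3 was within the d6 range. Without that array the difference was 3.48 and was called (limma adjusted p = 0.00944). Pou5f1, which encodes the pluripotency factor OCT4, was at 8.82, 9.66 and 10.43 and at 7.09, 8.48 and 8.64, a difference of -1.57 (limma adjusted p = 0.166).

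Among the 12 largest increases, ranked by the brightest probe of each gene, Pga5 rose from 10.69, 10.47 and 12.69 to 16.42, 15.05 and 15.85, a 22.5-fold change. Hesx1 rose from 5.73, 6.29 and 7.84 to 11.24, 10.76 and 10.36, a 17.9-fold change. Chga lay between 8.96 and 9.90 on the d5 arrays and rose to 14.13, 13.24 and 12.88, a 17.5-fold change. The d5 and d6 arrays of these 3 genes did not overlap, which the choice of genes with all 9 array pairs in the called direction required. Rax, a homeobox factor known from the eye field and forebrain, rose by 4.49 (from 5.64, 5.28 and 6.38 to 11.07, 10.75 and 8.95). Proc, which encodes the anticoagulant protein C made in liver, rose by 4.47.

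Structural genes of other tissues were also among them. Nefh, a neurofilament subunit, rose by 4.48, and its dimmer probe showed 1.38 (limma adjusted p = 0.0288). Its mean of 10.41 in d6 G+H- cells was near that in ESCs (10.64) and on d2 (11.34), with 6.19 in d4 G+ cells between. Myl3, a light chain of cardiac and slow muscle myosin, rose by 4.23, and Tnnt1, slow skeletal troponin T, by 3.87 on 1 probe and 3.83 on the other. Alx1, a homeobox factor of craniofacial mesenchyme, rose by 3.77, and Chil1, a secreted chitinase-like protein, by 3.60. Klk1b3, a kallikrein, rose by 3.59, and 8 of 14 Klk1b genes and 3 of 8 Akr1c genes on the array were called higher. Members of such families can be alike in sequence and their probes may share transcripts, which was not tested, so that each is uncertain alone. Bpifa1, a secreted airway protein, was above background on 0 of 3 d5 arrays and was at least 10.7-fold higher in d6 G+H- cells. Its call was lost without d5 Ghigh replicate 1 or 2 or d6 G+H- replicate 1, whereas the calls of the other 11 genes held whichever of the 6 arrays was left out.

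**Figure D3:**
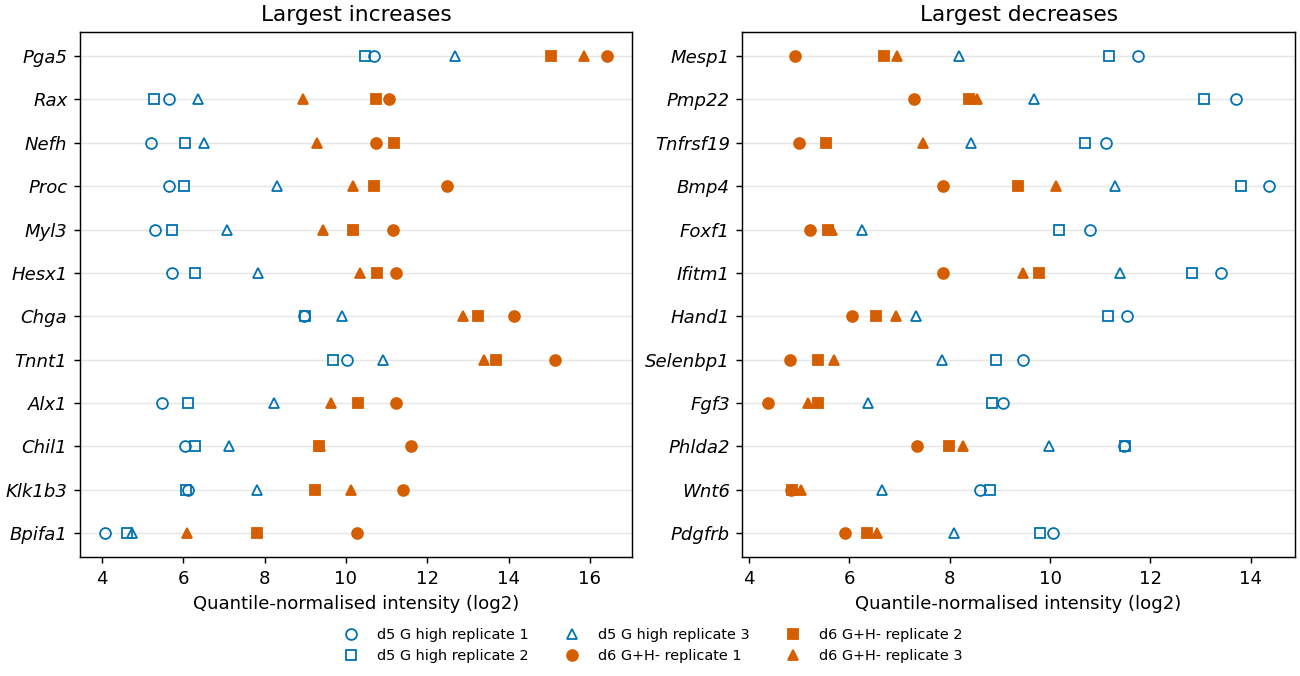
Quantile-normalised intensity (x axis, log2) of the 12 genes with the largest increases and the 12 with the largest decreases, in each of the 6 arrays. Open blue symbols are d5 Ghigh and filled orange symbols d6 G+H- arrays, with a circle, square or triangle for replicates 1, 2 and 3. The genes were picked among calls with all 9 array pairs in the called direction, so that by choice none overlaps between the populations. The d5 Ghigh triangle is the d5 symbol nearest to the d6 mean for each of the 24 genes.

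Ranked by the brightest probe of each gene, Mesp1 had the largest decrease, from 11.76, 11.18 and 8.18 in d5 Ghigh to 4.91, 6.69 and 6.95 in d6 G+H- cells, an 18.3-fold change. Bmp4 fell from 14.38, 13.80 and 11.30 to 7.86, 9.37 and 10.12, a 16.5-fold change. The second probe of Bmp4 was not above background on any of the 6 arrays. In both genes d5 Ghigh replicate 3 was the nearest d5 array to the d6 arrays. That the populations did not overlap followed from the same choice of genes. Fgf3, a ligand of the posterior streak, fell from 9.06, 8.85 and 6.38 to 4.37, 5.38 and 5.18. Wnt6 was above background on 0 of 3 d6 arrays and was at least 8.49-fold lower there.

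The other decreases concerned mesodermal, membrane and growth genes. Pdgfrb fell by 3.05, and Tnfrsf19, a receptor of the TNF family and a known Wnt target, by 4.08, with -0.90 on its dimmer probe. Ifitm1, an interferon-inducible membrane protein expressed in the streak, fell by 3.51, Phlda2, an imprinted gene that restrains placental growth, by 3.11, and Selenbp1, a selenium-binding protein, by 3.44. These genes, Mesp1, Bmp4, Fgf3 and Wnt6 were called whichever of the 6 arrays was left out. Pmp22, a membrane protein of myelin, fell by 4.08, Foxf1, a factor of lateral mesoderm, by 3.60, and Hand1, a factor of extra-embryonic mesoderm and heart, by 3.50. The calls of these 3 genes were lost without d5 Ghigh replicate 1 or 2 or d6 G+H- replicate 1, and that of Hand1 also without d6 G+H- replicate 2 or 3.

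The gene lists drawn up here were chosen with earlier results of these data known. Their counts are thus no independent evidence of direction. Over all genes tested, 1.45% rose and 0.798% fell. Of the primitive streak and posterior genes, 11 of 25 fell and 0 rose, with a median of -1.46. T, the Brachyury factor, fell by 2.64 (from 8.86, 9.50 and 9.70 to 6.18, 7.20 and 6.76), and its call was lost without d6 G+H- replicate 1. Mixl1, a homeobox factor of the streak, fell by 1.99, and Snai1, which represses E-cadherin in cells that leave the epithelium, by 1.95. Both were called whichever of the 6 arrays was left out. Rspo3, Cdx2, Sp5, Wnt3, Apln and Aplnr were also called lower. Eomes, a factor shared by streak and endoderm, was at 14.23, 14.07 and 13.57 and at 13.19, 13.22 and 13.40, a difference of -0.69 (limma adjusted p = 0.291). Fgf8 showed 0.46 (limma adjusted p = 0.66). The count of 11 was 6 without d5 Ghigh replicate 1, 5 without d5 Ghigh replicate 2 and 4 without d6 G+H- replicate 1.

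Of the mesoderm genes 9 of 33 fell and 1 rose, with a median of -0.91. Besides Bmp4, Pdgfrb, Foxf1 and Hand1, these were Cdh11, a cadherin of mesenchyme (-2.88), Tbx3 (-2.87), Msx1 (-2.86), Meox1 (-1.92) and Kdr, the VEGF receptor. Kdr was called on the dimmer of its 2 probes only (-4.98), while the brighter showed -0.14. Tbx1, known from pharyngeal endoderm as well as mesoderm, rose from 5.30, 6.17 and 6.91 to 10.08, 10.13 and 8.74. The count of 9 was 3 without d5 Ghigh replicate 1 or 2 and 4 without d6 G+H- replicate 1.

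**Figure D4:**
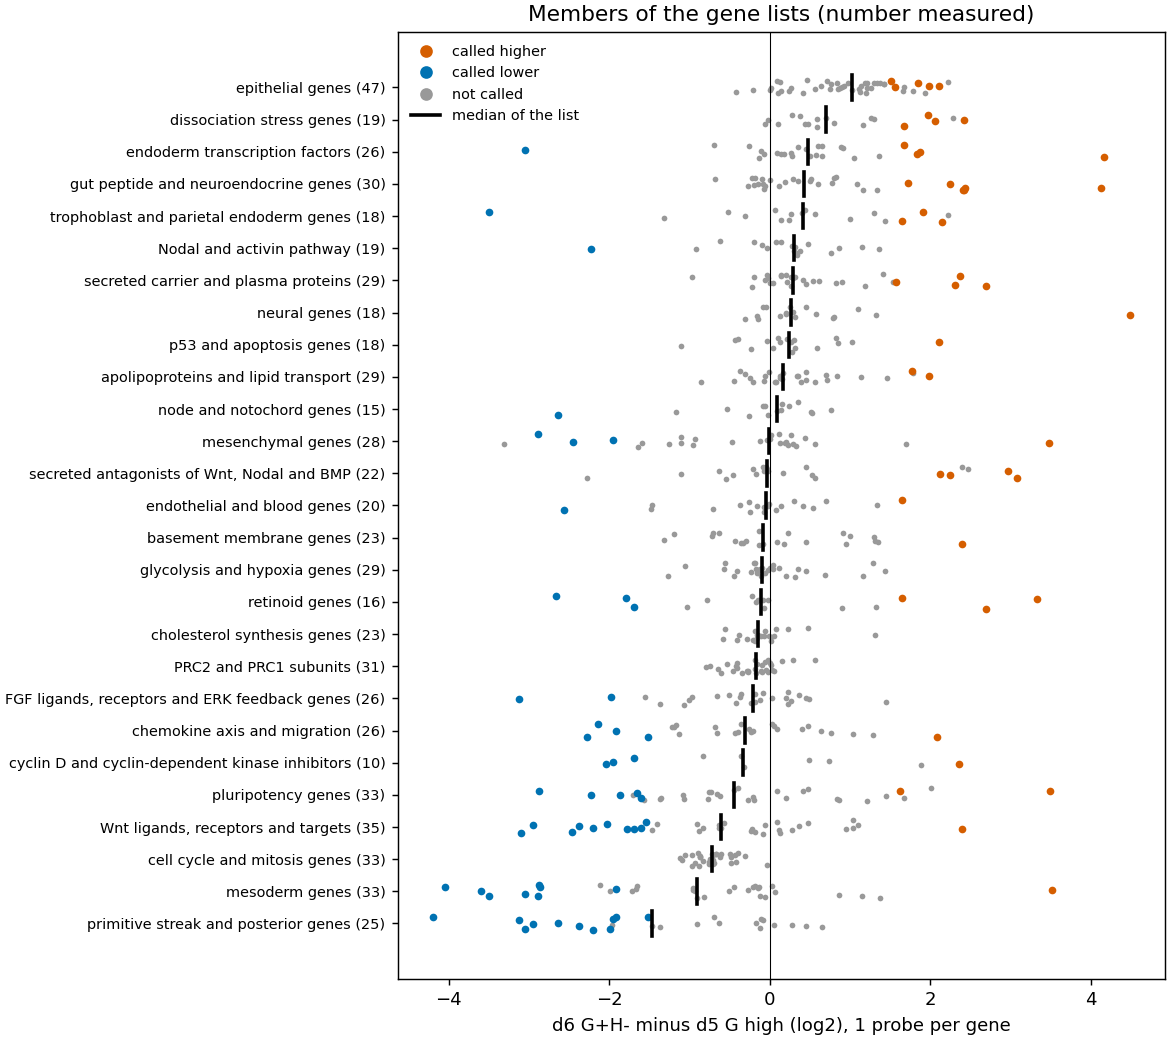
Difference between d6 G+H- and d5 Ghigh cells (x axis, log2, by 1 probe per gene) for the members of 27 gene lists (rows, with the number measured). Orange points were called higher and blue points lower on the probe shown, grey points were not called on it, and black bars mark the median of each list. The primitive streak and mesoderm lists have the lowest medians, -1.46 and -0.91, and the epithelial list the highest, 1.03.

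Among Wnt ligands, receptors and targets 10 of 35 fell and 2 rose. The ligands Wnt3, Wnt5b and Wnt6 and the Wnt enhancer Rspo3 fell. Wnt3 was at 11.58, 11.22 and 9.82 in d5 Ghigh and at 8.06, 8.19 and 9.76 in d6 G+H- cells. The feedback targets Axin2 (-2.02) and Nkd1 (-2.46), the effector Lef1 (-1.77), the target Sp5 (-2.37) and its relative Sp8, and Ccnd1 (-1.69), which encodes cyclin D1, also fell. Nkd1 and Wnt6 were called whichever of the 6 arrays was left out, and Axin2 lost its call without d5 Ghigh replicate 1. The receptor Fzd5 rose from 8.38, 8.79 and 10.33 to 11.60, 11.70 and 11.40. Tcf7l2, an effector, was called higher on 2 of its 3 probes (1.71 and 1.58) and showed 1.04 on the brightest. It lost its call without d5 Ghigh replicate 1 or 2. Of the 10 decreases 3 were called without d5 Ghigh replicate 1, 3 without d5 Ghigh replicate 2 and 4 without d6 G+H- replicate 1.

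Of the secreted antagonists of Wnt, Nodal and BMP 4 of 22 rose and 0 fell, with a median of -0.03. Sfrp5, a soluble Wnt-binding protein of the ventral foregut endoderm, rose from 11.46, 11.39 and 12.01 to 15.44, 14.29 and 14.36, an 8.43-fold change. Sfrp1 rose by 2.24 and Shisa2, an antagonist of Wnt and FGF receptor maturation, by 2.13. These 3 genes were called whichever of the 6 arrays was left out. Lefty2, an inhibitor and target of Nodal, rose by 2.98, and its call was lost without d5 Ghigh replicate 1 or 2 or d6 G+H- replicate 1. Lefty1 was higher in all 9 pairs by 2.39 but missed the threshold (limma adjusted p = 0.0174). With the replicate number as a block Lefty1 was called (limma adjusted p = 0.00837), and Apcdd1, a membrane inhibitor of Wnt signalling at -2.27 (limma adjusted p = 0.0165 without the block), was called lower (0.00254). Dkk1 (0.57), Frzb (0.52), Chrd (-0.02) and Nog (-0.08) were not called.

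In the Nodal and activin pathway 0 of 19 genes rose and 1 fell. This was Tdgf1, the Nodal co-receptor Cripto, at 10.98, 10.86 and 10.86 and at 7.55, 8.53 and 9.95 (-2.22). Its call was lost without d6 G+H- replicate 1. Nodal itself was at 11.75, 11.85 and 12.66 and at 12.90, 12.76 and 12.90, a difference of 0.77 (limma adjusted p = 0.0202). Of the FGF genes 3 of 26 fell, Fgf3, Fgf15 and Fgfr1, and this was 1 gene without d5 Ghigh replicate 1 or 2 or d6 G+H- replicate 1, or with a larger background offset.

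Promoters of 4 of these genes are shown because their changes, in antagonists and carriers on the one side and streak genes on the other, held whichever of the 6 arrays was left out. Each sequence is the 250 bases before the transcription start, 5′ to 3′ on the strand of the gene, from RefSeq on GRCm38.p6. Capitals mark matches on either strand to the GATA motif AGATAA or the FOXA motif TGTTTAC. Mesp1 held no match to any motif searched.
Sfrp5 (chr19:42202253-42202502, minus strand): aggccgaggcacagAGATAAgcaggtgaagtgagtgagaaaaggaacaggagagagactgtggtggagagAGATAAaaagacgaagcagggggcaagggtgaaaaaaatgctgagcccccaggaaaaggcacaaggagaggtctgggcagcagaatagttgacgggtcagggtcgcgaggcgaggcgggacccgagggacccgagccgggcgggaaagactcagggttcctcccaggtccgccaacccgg
Rbp4 (chr19:38125322-38125571, minus strand): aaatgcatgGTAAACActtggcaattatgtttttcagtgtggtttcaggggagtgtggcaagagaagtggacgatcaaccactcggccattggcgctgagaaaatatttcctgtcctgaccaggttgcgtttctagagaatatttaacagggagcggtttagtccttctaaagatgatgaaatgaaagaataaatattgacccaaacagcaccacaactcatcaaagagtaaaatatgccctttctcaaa
Mesp1 (chr7:79793591-79793840, minus strand): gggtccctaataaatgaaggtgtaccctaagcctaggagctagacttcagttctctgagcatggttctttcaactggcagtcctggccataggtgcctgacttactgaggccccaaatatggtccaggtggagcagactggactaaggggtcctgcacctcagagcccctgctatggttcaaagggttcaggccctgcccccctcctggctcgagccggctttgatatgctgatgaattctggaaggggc
Fgf3 (chr7:144838362-144838611, plus strand): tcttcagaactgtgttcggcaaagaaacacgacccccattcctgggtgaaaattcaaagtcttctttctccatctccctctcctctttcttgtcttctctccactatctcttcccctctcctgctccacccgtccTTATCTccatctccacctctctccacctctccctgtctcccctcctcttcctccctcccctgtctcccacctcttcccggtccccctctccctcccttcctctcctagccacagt

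Sfrp5 held AGATAA at 236 and 180 bases before the start, Fgf3 held its reverse complement at 115 bases and Rbp4 the reverse complement of TGTTTAC at 241 bases. Rbp4 has 2 promoters in the table, of which the first is shown. Over 16601 genes with a promoter, 8.93% held AGATAA and 2.67% held TGTTTAC in this window. The shares were 8.82% and 2.1% of 238 genes that rose and 5.74% and 2.46% of 122 genes that fell. ATTGTT (SOX) was in 8.11% of all, 7.56% of the rising and 4.1% of the falling promoters. GTTAAT (part of the HNF1 site) was in 5.73%, 5.46% and 7.38%, and AAAGTCC (part of the HNF4 site) in 3.75%, 5.04% and 4.1%. No motif overlapped another in the sequences shown, and the shares are a description without a test.

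Of the endoderm transcription factors 4 of 26 rose and 1 fell. Hesx1 and Hhex are given above. Foxa3, a forkhead factor of the gut and liver, rose from 6.28, 6.49 and 7.26 to 8.79, 7.84 and 8.89, and Sox7 from 4.95, 4.84 and 5.01 to 7.07, 6.20 and 7.15. Both were called whichever of the 6 arrays was left out. Cdx2, the hindgut and posterior factor, fell from 9.69, 9.28 and 6.63 to 4.78, 5.82 and 5.87, and kept its call only without d5 Ghigh replicate 3. The factors Gata4 (0.46), Gata6 (0.51), Foxa1 (0.65), Lhx1 (0.91) and Otx2 (1.05) were not called. Hnf4a, a liver and gut factor, was at 10.31, 9.48 and 8.74 and at 10.97, 10.32 and 11.34 (1.36, limma adjusted p = 0.0312). Scaling by the 75th percentile left 1 of the 4 increases and an offset of 50 left 2.

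Of the secreted carrier and plasma proteins 5 of 29 rose and 0 fell. Rbp4, the plasma carrier of retinol, rose from 10.59, 10.55 and 11.57 to 14.48, 13.61 and 12.72, a 6.5-fold change. Ambp, a plasma protease inhibitor precursor, rose by 2.37, Fgg, the fibrinogen gamma chain, by 2.31, and Amn, a part of the cubilin receptor, by 1.58. F10, coagulation factor X, was called on its dimmer probe only (1.59), with 0.31 on the brighter. Alb was above background on no array of either population, and Afp on 1 of 3 d5 and 0 of 3 d6 arrays. Ttr showed 1.41 (limma adjusted p = 0.143). Of 29 apolipoprotein and lipid transport genes 2 rose, Apoa1 by 1.99 and the cholesterol exporter Abca1 by 1.77, and the call of Apoa1 held whichever of the 6 arrays was left out. Abca1 was not called without d5 Ghigh replicate 1 or 2 or d6 G+H- replicate 1 or 2.

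Of 30 gut peptide and neuroendocrine genes 6 rose and 0 fell, with a median of 0.43. Besides Chga these were Gip, an incretin of the gut, which rose from 5.35, 5.54 and 5.12 to 8.08, 7.77 and 6.90, and Pyy, the peptide YY precursor, which rose from 5.56, 5.84 and 5.87 to 9.61, 7.98 and 6.95. Grp, gastrin-releasing peptide, rose by 2.44, Sst, somatostatin, by 2.40 and Pcsk1n, an inhibitor of prohormone cleavage, by 1.73. Trh lay between 14.03 and 16.04 in d5 Ghigh and between 15.91 and 16.22 in d6 G+H- cells, and was not called (1.34). The transcription factors of endocrine cells Neurog3 and Neurod1 were above background on 0 of 3 d6 arrays. Of the 6 genes 2 were called without d6 G+H- replicate 1 and 3 without d5 Ghigh replicate 1, and Chga and Gip were called in every such fit.

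Of 16 retinoid genes 3 rose and 3 fell. Rarb, a retinoic acid receptor and known target of retinoic acid, rose from 6.28, 6.88 and 7.91 to 10.75, 10.08 and 10.21, a 10-fold change. Stra6, the cellular receptor of Rbp4, rose by 1.65. The receptor Rarg fell by 1.69, and the binding proteins Crabp1 and Crabp2 by 1.79 and 2.66. Rarb, Rbp4 and Rarg were called whichever of the 6 arrays was left out, but Stra6 lost the call without d5 Ghigh replicate 1 or d6 G+H- replicate 1, Crabp2 also without d5 Ghigh replicate 2, and Crabp1 also without d5 Ghigh replicate 2 or d6 G+H- replicate 3. Cyp26a1, which degrades retinoic acid, was at 13.65, 13.69 and 14.42 and at 15.48, 15.25 and 14.99 and was under the fold threshold (1.32, limma adjusted p = 0.00272).

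Of 47 epithelial genes 5 rose and 0 fell. The median was 1.03, beside -0.01 for all genes, and 45 of the 47 differences were above 0. Cdh1, which encodes E-cadherin, rose from 10.33, 10.74 and 12.31 to 13.28, 12.87 and 13.17. Spint1 and Spint2, inhibitors of membrane serine proteases, rose by 1.85 and 1.51, Vil1, the villin of microvilli, by 2.11, and Marveld2, a protein of tricellular tight junctions, by 1.56. Cldn6 (1.67), Rab25 (1.66), Krt19 (1.79) and Krt7 (2.22) were past the fold threshold with limma adjusted p values of 0.0373, 0.0183, 0.0197 and 0.0246, and Rab25 was called with the replicate number as a block (0.00522). On d5 Ghigh replicate 3 the mean log2 intensity of the list was 9.33, against 8.43 and 8.54 on the other d5 arrays and 9.58 to 9.91 on the d6 arrays. Without d5 Ghigh replicate 3, 17 genes were called. Without d5 Ghigh replicate 1 or 2 or d6 G+H- replicate 1 or 3, 2 genes were called, and Spint1 and Vil1 were called in all 6 fits.

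Of 28 mesenchymal genes 3 fell and 1 rose. Zeb2, a repressor of E-cadherin, fell from 8.77, 8.56 and 6.46 to 5.13, 5.73 and 5.56, and Snai1 and Cdh11 are given above. Vim showed -1.11 (limma adjusted p = 0.0239) and Cdh2, which encodes N-cadherin, -0.47. The 3 decreases were 6 with the replicate number as a block, which added Col1a1, Fn1 and Zeb1, and the count was 1 without d5 Ghigh replicate 1 or 2 and 6 without d5 Ghigh replicate 3. Acta2, smooth muscle actin, rose from 9.17, 9.89 and 10.55 to 14.51, 13.51 and 12.02, and lost its call without d5 Ghigh replicate 1 or d6 G+H- replicate 1. Of 23 basement membrane genes 1 rose, the laminin chain Lamb3 (2.40), and its call was lost without d5 Ghigh replicate 1 or 2 or d6 G+H- replicate 1 or 3.

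Of 33 pluripotency genes 5 fell and 2 rose. Dppa2, a chromatin factor of early embryonic cells, fell from 6.40, 6.57 and 6.01 to 4.82, 4.56 and 4.65 and was above background on 0 of 3 d6 arrays, so that it was at least 2.71-fold lower. Dppa5a fell by 1.87, Dnmt3l by 1.60 and Tbx3 by 2.87. Nr0b1, an orphan nuclear receptor that binds OCT4, rose from 7.79, 7.90 and 8.07 to 12.55, 11.61 and 10.10, and Tfcp2l1 by 1.63. Nanog showed -1.07 (limma adjusted p = 0.0724). The 5 decreases were 2 without d5 Ghigh replicate 1 or 2 or d6 G+H- replicate 2 and 1 without d6 G+H- replicate 1, and Dppa2 was called in each of these fits. The 2 increases were 1 without d5 Ghigh replicate 1 or 2 and 0 without d6 G+H- replicate 1.

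Of 33 genes of the cell cycle and mitosis 0 passed the fold threshold, while all 33 differences were below 0, with a median of -0.72 beside -0.01 for all genes. At an unadjusted p under 0.05, 30 of them were lower. Of all 28066 probes of RefSeq genes, 6646 were under this p in either direction. Top2a, a topoisomerase of dividing cells, was at 12.47, 12.34 and 12.18 in d5 Ghigh and at 11.11, 11.41 and 11.21 in d6 G+H- cells (-1.09, limma adjusted p = 3.5e-05). Mki67 was at 13.33, 13.38 and 13.21 and at 12.43, 12.77 and 12.56 (-0.72, limma adjusted p = 0.000331). The populations did not overlap for either gene. With scaling by the 75th percentile and without d5 Ghigh replicate 3, 32 of the 33 differences were below 0. Among 10 genes of cyclins D and their kinase inhibitors Ccnd1, Ccnd2 and Cdkn1c fell by 1.69, 2.03 and 1.95, and Cdkn2b, a kinase inhibitor, rose by 2.37. With the replicate number as a block Cdkn2a was called higher too (1.89). The 3 decreases were 1 without d5 Ghigh replicate 1 or d6 G+H- replicate 3 and 0 without d5 Ghigh replicate 2 or d6 G+H- replicate 1. Cdkn2b was not called without d5 Ghigh replicate 1 or 2 or d6 G+H- replicate 1 or 2.

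Of 19 genes that respond to the dissociation of tissue, 4 rose and 0 fell, with a median of 0.71. Jun rose from 12.83, 11.86 and 12.07 to 14.06, 14.10 and 13.64, and Atf3 from 6.47, 6.57 and 6.85 to 8.77, 8.81 and 8.48. Fosb rose by 2.42 and Egr1 by 1.98, and Fos showed 2.29 (limma adjusted p = 0.0314). The summed linear intensity of the list was 47928 to 79031 on the d5 arrays and 89997 to 102724 on the d6 arrays. Only Atf3 was called whichever of the 6 arrays was left out, and 1 gene of the list was called without d5 Ghigh replicate 2 or d6 G+H- replicate 1 and 2 without d5 Ghigh replicate 1. The part of cell handling in these values was not tested.

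Markers of other cell types were read in the same way, beside 1.45% of all genes tested that rose and 0.798% that fell. Of 18 neural genes Rax rose and 0 others were called, and the brighter of 2 Pax6 probes was above background on 0 of 3 arrays of each population. Sox1 showed -0.04. The summed linear intensity of the list was 5187 to 6417 on the d5 and 6886 to 13274 on the d6 arrays. Of 20 endothelial and blood genes Etv2 fell by 2.56 and Gata1 rose by 1.65, and Pecam1 showed -0.16. The summed linear intensity of that list was 16346 to 21400 on the d5 and 28689 to 36291 on the d6 arrays, while its mean log2 intensity was 6.87 to 6.93 and 6.70 to 6.92 and its median difference -0.04, with 12 of 20 differences below 0. Of 18 genes of trophoblast and parietal endoderm Ascl2, Srgn and Stra6 rose and Hand1 fell, with summed intensities of 73528 to 89554 and 98965 to 133270. The count of 3 increases, 16.7% of the list, was 0 without d5 Ghigh replicate 1, 1 without d5 Ghigh replicate 2 or d6 G+H- replicate 1 and 5 without d5 Ghigh replicate 3. Gata1 was not called without d5 Ghigh replicate 1 or 2 or d6 G+H- replicate 3. The part of such cells in the results above was not tested.

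Of the node and notochord genes T fell and 0 of 15 rose, and the notochord factor Noto was above background on 1 of 3 d5 and 0 of 3 d6 arrays. Of 26 genes of chemokine signalling and cell guidance Apln, Aplnr, Efnb2 and Slit3 fell and Slit1 rose. Efnb2, an ephrin ligand, fell from 9.86, 9.87 and 8.66 to 6.84, 7.39 and 7.31, and Slit1 rose from 9.46, 9.64 and 11.09 to 12.28, 12.18 and 11.98, and both were called whichever of the 6 arrays was left out. The 4 decreases were 2 without d5 Ghigh replicate 2 or d6 G+H- replicate 1. Of 18 p53 and apoptosis genes Bok rose by 2.10, a call lost without d5 Ghigh replicate 1 or 2 or d6 G+H- replicate 1 or 2. No gene was called among 29 of glycolysis and hypoxia, 23 of cholesterol synthesis and 31 subunits of PRC2 and PRC1, the polycomb complexes, whose medians were -0.09, -0.14 and -0.18. Ezh2, the methyltransferase of PRC2, lay between 11.62 and 12.16 in d5 Ghigh and between 11.55 and 11.86 in d6 G+H- cells (-0.29, limma adjusted p = 0.478).

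The marker lists that the study drew up may rest on the same samples. Like the lists above, they are no independent evidence of direction. Of 34 genes in its definitive endoderm list 9 rose and 0 fell, among them the channel protein Clic6 (from 10.91, 10.45 and 11.07 to 14.34, 13.47 and 13.79) and the tetraspanin Tspan7 (1.73). Of 21 in its mesoderm list 8 fell and 1 rose, and of 11 in its trophoblast list 3 fell. Of its 11 mesendoderm genes 3 fell and Grp rose, and of its 23 pluripotency genes 4 fell and 2 rose. Of 12 in its endoderm list 2 rose. Of 10 ecto-mesoderm and 11 ectoderm genes 2 and 1 fell, and of 7 neurectoderm genes 0 were called. Over all genes tested 1.45% rose and 0.798% fell. Among the genes counted, Hhex was called in 2 of the 6 fits with 1 array left out. Hand1, Cdx2 and Dnmt3l were called in 1 of them, and Clic6, Tspan7 and Sox7 in all 6.

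The same genes were then read in the comparison of d6 G+H+ with d5 Glow cells, which shares no array with d6 G+H- and d5 Ghigh. Only the arrays are separate. Both comparisons took the spread of each probe from the same fit, and the populations of each day were gated by the same reporters. Whether populations of the same day came from the same cultures was not tested, so that the overlap is no independent replication. In the comparison of d6 G+H+ with d5 Glow cells 837 genes were higher (3.93%) and 618 lower (2.9%), or 6.83% in either direction. Of the 310 genes that rose, 297 were also higher there, which is 95.8% of the 310 and 35.5% of the 837, and of the 170 that fell 163 were lower, 95.9% of the 170 and 26.4% of the 618. No gene was called in the opposite direction. The median difference there was 3.11 over the genes that rose and -2.90 over those that fell, beside -0.01 over all genes. Tnnt1 showed 6.04, Chga 7.12 and Bmp4 -7.16 there. Il11, a cytokine, rose by 1.98 here and showed -0.24 there. Between d6 G+H+ and d6 G+H- cells 0 genes were called by limma, with a smallest adjusted p of 0.0299 and 1581 probes at an unadjusted p under 0.05.

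Along the populations, the median log2 intensity of the 310 genes started at 6.19 (d4 G+), stood at 6.48 and 7.24 on d5 (Glow and Ghigh) and reached 9.50 and 9.99 on d6 (G+H- and G+H+). That of the 170 genes was 9.72, 9.66, 9.07, 6.95 and 6.56 in the same order. T was at 13.30 ± 0.34 (SD, n = 3) in d3 G+ and 11.67 ± 0.76 in d4 G+ cells, before 9.35 ± 0.44 on d5 (Ghigh) and 6.71 ± 0.51 on d6 (G+H-). Cdh1 was at 12.44 ± 0.15 in ESCs and 10.33 ± 0.85 in d4 G+ cells, and at 13.11 ± 0.21 in d6 G+H- cells.

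**Figure D5:**
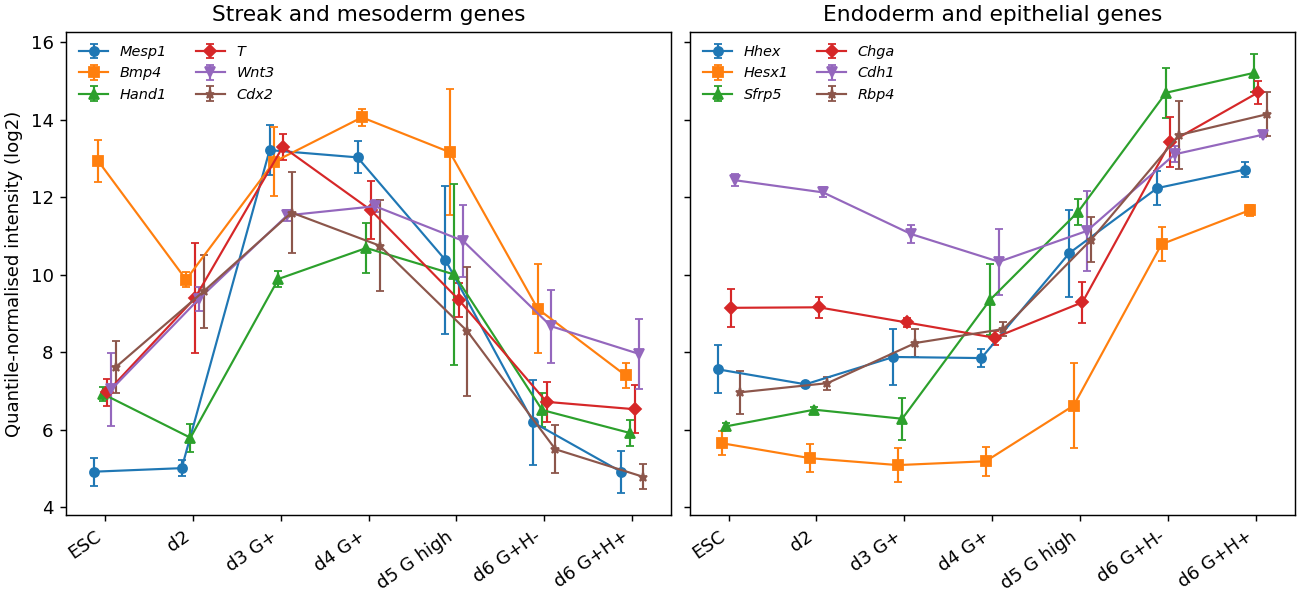
Mean quantile-normalised intensity (y axis, log2) with SD over 3 arrays, from ESCs to d6 G+H+ cells (x axis), for 6 streak and mesoderm genes (left) and 6 endoderm and epithelial genes (right). Lines join population means. Mesp1 and T peak in d3 G+ cells and are lowest among the sorted populations shown on d6, while Hesx1 lies at 5.18 in d4 G+ and reaches 10.78 in d6 G+H- cells.

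The difference between the last step and the step before it, from d4 G+ to d5 Ghigh cells, was tested directly. The steps share the d5 Ghigh arrays, so that any deviation of those arrays enters both with opposite sign. In the last step 10 genes had a more positive change (0.0469% of those tested) and 5 a more negative one (0.0235%), or 0.0704% together. In the earlier step alone 151 genes were higher (0.709%) and 96 lower (0.451%). With the replicate number as a term in the fit there were 20 and 18. Without d5 Ghigh replicate 3 there were 56 and 51, and without d5 Ghigh replicate 1 there were 0 and 1. The counts were 4 and 3 without d5 Ghigh replicate 2, 5 and 3 without d6 G+H- replicate 1 and 24 and 12 without d6 G+H- replicate 3. They were 6 and 2 without d4 G+ replicate 2 and 3 and 3 without d4 G+ replicate 3.

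The more positive changes were led by genes that were lower in d5 Ghigh than in the populations on either side. Dusp8, a phosphatase of stress kinases, had a mean of 7.61 in d4 G+ cells, 5.98 on d5 and 9.43 on d6. Ccn1, a secreted matrix protein, had 12.16, 9.95 and 12.04, Il11 had 9.12, 6.85 and 8.83, and Atf3 had 8.65, 6.63 and 8.69. Myl3 differed from these, with 5.93, 6.03 and 10.26. Among the more negative changes, Sox17 rose by 4.52 between d4 G+ and d5 Ghigh and showed 0.27 in the last step. Spink1, a trypsin inhibitor, rose by 6.22 and then by 2.03. Selenbp1 showed 1.16 and then fell by 3.44, Fhdc1, a formin, rose by 2.74 and then showed -0.29, and Tk1, a thymidine kinase of S phase, showed 0.81 and then -0.96.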

How the data were processed

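Arrays of 3 d5 Ghigh and 3 d6 G+H- samples were compared, with groups and replicate numbers taken from the sample titles. The authors scanned the arrays with Agilent Feature Extraction 11.0.1.1 and deposited spot intensities, from which all results were computed. A deposited table of normalised log2 values of the same arrays served as an alternative. The submitters' processing notes name limma, and the files' build is mm9.

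Median spot and background intensities were averaged per probe, corrected by normexp with an offset of 10 and quantile normalised over 42 arrays. This was done in R 4.3.3 with limma 3.58.1 and statmod 1.5.0. Outlier spots and controls were left out. The model held 1 mean per group, with Benjamini-Hochberg adjustment over 55681 probes. Quantile normalisation gives each array the same distribution, so that a shift of most genes is not seen. Genes were named through RefSeq accessions (28066 probes, 21308 genes tested). The number of arrays limits the precision.

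Genes named were the 12 largest increases and decreases among calls with all 9 array pairs in the called direction, the sort and endoderm markers, the largest differences between steps, and members of the gene lists. Members and lists were chosen with earlier results of these data known. Replicate numbers were taken as pairs only in the differences by replicate and in the replicate block. The reason was that deviations from the group means of samples with the same number correlated at 0.18, 0.23 and 0.30. Calls and adjusted p values come from the fit without this pairing unless another fit is named. The fit was also run on simulated data with independent noise and 1 spread per probe in all groups. Such data lack the unequal spread between groups and the shared slides, so that the run is no check of these calls. Alternatives were the background offset, uncorrected background, 75th percentile scaling, the deposited values, fewer arrays, filters on probes, slide and replicate terms and leaving out each array. A result on 1 marker list is not reported here.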

Additional observations from a re-analysis of the deposited data

Results flagged for a closer look

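Of the genes whose change differed between the last step and the step before it by a direct test in limma, the 5 largest differences in each direction follow, and the d5 Ghigh arrays enter both steps. The difference between the steps (log2) was 5.07 for Dusp8, 4.31 for Ccn1, 4.26 for Il11, 4.12 for Myl3 and 4.07 for Atf3. It was -4.60 for Selenbp1, -4.26 for Sox17, -4.19 for Spink1, -3.03 for Fhdc1 and -1.78 for Tk1.

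Probes without a RefSeq accession were not used for any gene above. Of 27615 such probes, 68 were higher in d6 G+H- cells (0.246%) and 32 were lower (0.116%), against 1.19% and 0.673% of the probes with an accession.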

How the results depend on the processing

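The fits to the 6 compared arrays alone called 0 genes in either direction, and so did the fit to them with a replicate block, which was chosen after seeing the data (smallest limma adjusted p 0.0251 and 0.0262). At an unadjusted p under 0.05 and past the fold threshold they held 373 and 221, and 368 and 220 genes. The genes called in both comparisons were then 0 and 0, and so were the differences between steps. An offset of 50 gave 111 genes lower, 106 lower in both comparisons and 399 lower in d6 G+H+ against d5 Glow cells, and scaling by the 75th percentile gave 267 lower. Leaving out 1 array gave 178 to 487 genes higher and 81 to 278 lower, 0 to 56 and 1 to 51 for the difference between steps, and 757 to 897 and 529 to 693 for d6 G+H+ against d5 Glow.

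With the replicate block over all arrays, 332 genes were higher and 189 lower, all 310 and 170 among them, and the difference between steps gave 20 and 18. All 31 genes named by the rule for the main comparison stayed on the same side of the threshold with the block, while Lefty1, Rab25, Apcdd1, Cdkn2a, Col1a1, Fn1 and Zeb1 among the list members described were called with it and not without it. The difference between steps gave 16 higher and 11 lower with an offset of 50, 4 and 3 with the 75th percentile, 31 and 31 with slide as a random block and 17 and 18 with 1 probe per gene. It gave 5 higher with 33 arrays, and 9 lower with no background correction, 14 with probes above background and 8 with slide as a fixed block. Hhex lost its call under the 75th percentile, with 33 arrays and with slide as a fixed block, Hand1 under the 75th percentile (limma adjusted p = 0.0138) and Bpifa1 with an offset of 50 (0.0208). Cxcr4 was -0.034 with slide fixed, -0.020 with slide random and -0.00346 to 0.053 over the fits without 1 array. The causes were not tested.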
